A study of Mus musculus with 8 samples.

Results

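The comparison described here sets ribosome-associated RNA from unligated livers of mice labelled as lacking heme oxygenase-1 (HO-1) in myeloid cells against that of mice carrying the same Cre driver and ribosome tag alone. Its members are 4 of the 8 libraries of the series, chosen by their genotype and treatment labels, and all 14147 genes that passed a filter on low counts were tested. Both Ribotag control libraries have the genotype LysM-Cre:Ribotag and both Hmoxflfl control libraries the genotype LysM-Cre:Hmoxflfl:Ribotag. The other 4 libraries have the same genotypes, 2 each, sampled 17 days after bile duct ligation (BDL). They repeat the genotype comparison in other libraries. They also entered the same fit, so they helped set the filter, scaling and spread behind the control calls. All 8 carry LysM-Cre and the RiboTag allele, so no library lacks Cre. The labels give the tissue as liver and the cell type as myeloid cells, and give no age, strain or allele copy number. They do not say that the libraries of a group came from separate animals, so p-values may measure technical spread only.

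HO-1, the product of Hmox1, is the inducible enzyme that opens the heme ring and releases iron, carbon monoxide and biliverdin. In the liver, Kupffer cells, the resident macrophages, use it when they clear aged red cells. LysM-Cre is a knock-in at Lyz2, the lysozyme gene of macrophages, monocytes and neutrophils. RiboTag is a floxed allele of Rpl22, a protein of the large ribosomal subunit, in which Cre swaps the last exon for one with an epitope, and precipitating that epitope brings down ribosomes with their bound transcripts. The series title joins HO-1 to LNX1 and Notch1. LNX1 is an E3 ubiquitin ligase whose known target Numb restrains the Notch receptor, and a Notch receptor that has bound its ligand turns on genes such as Hes1.

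The 4 libraries held 23.3 M and 23.7 M counts in the Ribotag group and 33.8 M and 40.9 M in the Hmoxflfl group, of which Rn45s, the ribosomal RNA precursor, took 10.3% and 17.7%, and 55.6% and 22.6%. Levels are given as CPM, a gene's counts divided by its library's size in M after scaling by trimmed means of M-values (TMM), with replicate 1 before replicate 2. Defining hepatocyte genes such as Alb were abundant in all 4 libraries, and the 39 hepatocyte list genes held 13.5% to 15.5% of counts other than Rn45s. The 28 Kupffer cell list genes held 0.135% to 0.154%, and the 33 monocyte list genes 0.0156% to 0.0209%. Clec4f and Cd5l, which mark Kupffer cells, lay at 69.5 to 97.3 and 58.9 to 113 CPM. Csf1r, C1qa and Adgre1, macrophage genes, lay at 54.2 to 74.4, 16.9 to 48.9 and 13.4 to 16.2 CPM. Itgam and Ccr2, which monocytes express, lay at 1.54 to 2.54 and 0.997 to 1.48 CPM, and S100a9 of neutrophils at 0.707 to 1.24 CPM. Ly6c2 of monocytes and Elane and Mpo of early neutrophils were at or under 0.129 CPM in each control library. The RNA thus did not carry the markers of myeloid cells alone, and in such bulk samples fewer cells of a type and less RNA per cell cannot be told apart. All 4 control libraries expressed the Y-linked gene Ddx3y (76.5 to 97.8 CPM) and had Xist at or under 0.342 CPM.

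Few genes differed past the threshold between the labelled genotypes, and their number depended on the setting. Of 14147 genes, 27 (0.191%) had an adjusted p under 0.05 in edgeR's quasi-likelihood test, 11 higher and 16 lower under the labelled deletion, and each of the 27 differed by more than 2-fold. At an unadjusted p under 0.05 there were 968 genes (6.84%), 551 higher (3.89%) and 417 lower (2.95%). The libraries of the groups did not overlap for any of the 27, which was also so for 44.8% of all genes. By kind, the calls held genes of heme and iron (Hmox1, Hamp), a macrophage receptor (Marco), the imprinted RNAs Meg3 and Rian, liver enzymes and inhibitors (Cyp2b10, Serpina3c), the stress gene Ddit4, a block of zinc-finger genes on chromosome 2 and a pair of RNase P-like RNAs. Scaling by total counts in place of TMM gave 44 calls, 11 higher and 33 lower, and moved the median of all genes from 0.03 to −0.51 on the log2 scale. Without Ribotag control replicate 1 the count was 12, with 3 higher and 9 lower.

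**Figure D1:**
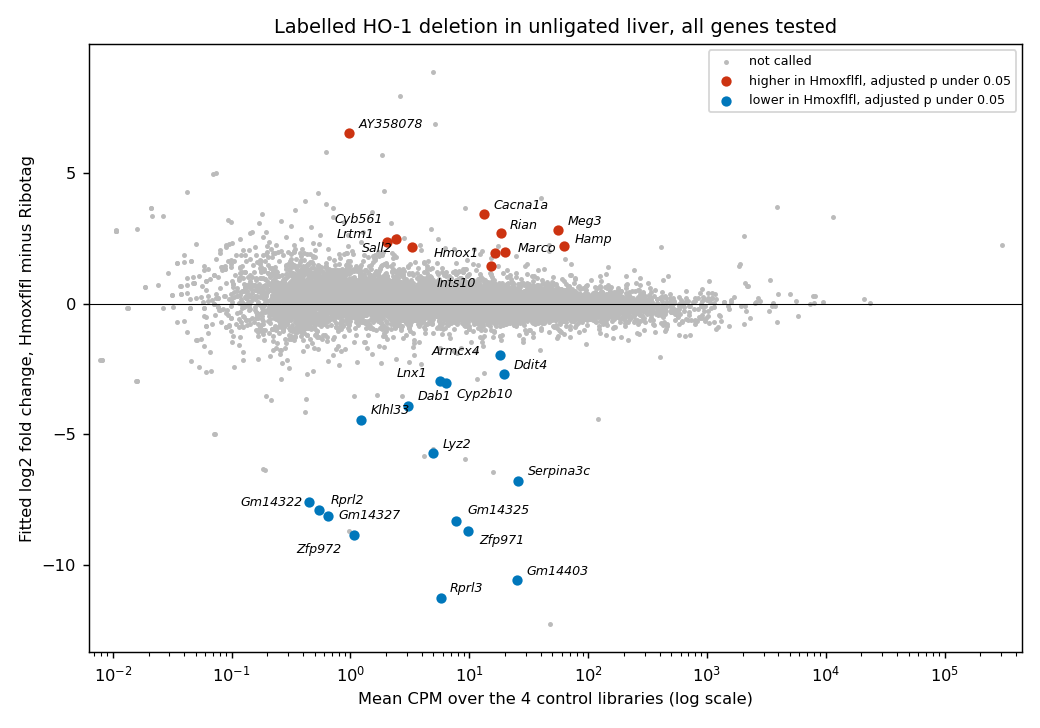
Each point is 1 of the 14147 genes, placed by its mean CPM over the 4 control libraries (x, log scale) and its fitted log2 fold change, Hmoxflfl minus Ribotag (y). The 11 genes called higher are red and the 16 called lower are blue; the lowest blue points are genes with 0 to 3 counts over both Hmoxflfl libraries, whose fitted values depend on the model's prior.

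Hmox1 RNA was not lower in the libraries labelled as deleted. Its level was 6.22 and 7.46 CPM in the Ribotag controls and 22.5 and 29.9 CPM in the Hmoxflfl controls, so both labelled deletions were above both controls. The difference was 3.83-fold, a log2 fold change of 1.94 ± 0.24 (SE, n = 2 per group; edgeR's quasi-likelihood test, adjusted p = 0.00434). Hmox1 lies on chromosome 8, 75093618 to 75100593 (mm10). Counts are per gene, and the labels do not state which exons were floxed, so transcripts with and without a deleted exon cannot be told apart. Because of this direction, "labelled HO-1 deleted" is used throughout, and directions are those of the libraries as labelled. Over 16 alternatives the Hmox1 log2 fold change ran from 1.01, with limma on log2(FPKM + 1), to 2.10. The adjusted p ran from 8.41e-09 (DESeq2) to 0.819 (edgeR, total-count scaling). The call was lost without Ribotag replicate 1 (adjusted p = 0.141), without Hmoxflfl replicate 2 (0.0544), under total-count scaling (0.819), with a term for the Rn45s share (0.0804) and on the deposited FPKM (0.435 and 0.489), each from the fit across all genes named in the methods.

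Lyz2, the locus that carries Cre, was nearly absent from both Hmoxflfl controls. It had 11.6 and 8.04 CPM in the Ribotag controls (368 and 250 counts) against 0.128 and 0.212 CPM in the Hmoxflfl controls (3 and 10 counts). The fold change of −5.72 ± 0.54 on the log2 scale passed the test (edgeR, adjusted p = 0.00123) and did so under all 16 alternatives. No other gene of the monocyte and macrophage list was called. Of its 31 tested genes, Lyz2 was the 1 lower at an unadjusted p under 0.05, 3 were higher at that p, and 22 had positive fold changes, with a list median of 0.34 that was 0.01 without Hmoxflfl replicate 2. Cx3cr1 and Trem2, a chemokine receptor and a lipid-sensing receptor of macrophages, were at or under 0.769 CPM in every control library. Lyz2 lies on chromosome 10, 117277541 to 117282272.

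Rpl22, the gene that carries the tag, had 44.3 and 84.7 CPM in the Ribotag controls and 30.1 and 41.9 CPM in the Hmoxflfl controls. Those levels did not overlap, which was also so for 44.8% of all genes. The log2 difference of −0.84 ± 0.36 did not pass the test (edgeR, adjusted p = 0.697).

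Lnx1 was lower and the rest of the Notch machinery showed no call. Lnx1 (chromosome 5, 74592447 to 74703043) had 10.5 and 9.55 CPM in the Ribotag controls and 1.62 and 1.02 CPM in the Hmoxflfl controls. It fell by 2.96 ± 0.46 on the log2 scale, a 7.77-fold lower level (edgeR, adjusted p = 0.0284). Numb, the target of LNX1, read 44.9 and 44.8 CPM against 44.1 and 45.6 CPM, a difference of 0.00 that changed sign with the setting. Notch1 itself had 40.1 and 57.2 CPM against 45.2 and 48.4 CPM, a log2 difference of −0.06 ± 0.24 (edgeR, adjusted p = 0.986), which was 0.23 without Ribotag replicate 2. Hes1, the Notch target, had 1.04 and 0.900 CPM against 3.46 and 1.88 CPM and did not pass (1.44 ± 0.38, edgeR, adjusted p = 0.322). Among the 37 tested genes of the Notch pathway list, 1 was called, Lnx1, and the list median was 0.07 beside 0.03 for all genes. The Lnx1 call did not hold when any 1 of the 4 control libraries was left out. Its adjusted p was then 0.144 without Ribotag replicate 1, 0.0762 without replicate 2, 0.106 without Hmoxflfl replicate 1 and 0.232 without replicate 2, and 0.501 with the Rn45s term. Over 16 alternatives it ran from 1.14e-07 to 0.501, with a negative fold change in each.

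**Figure D2:**
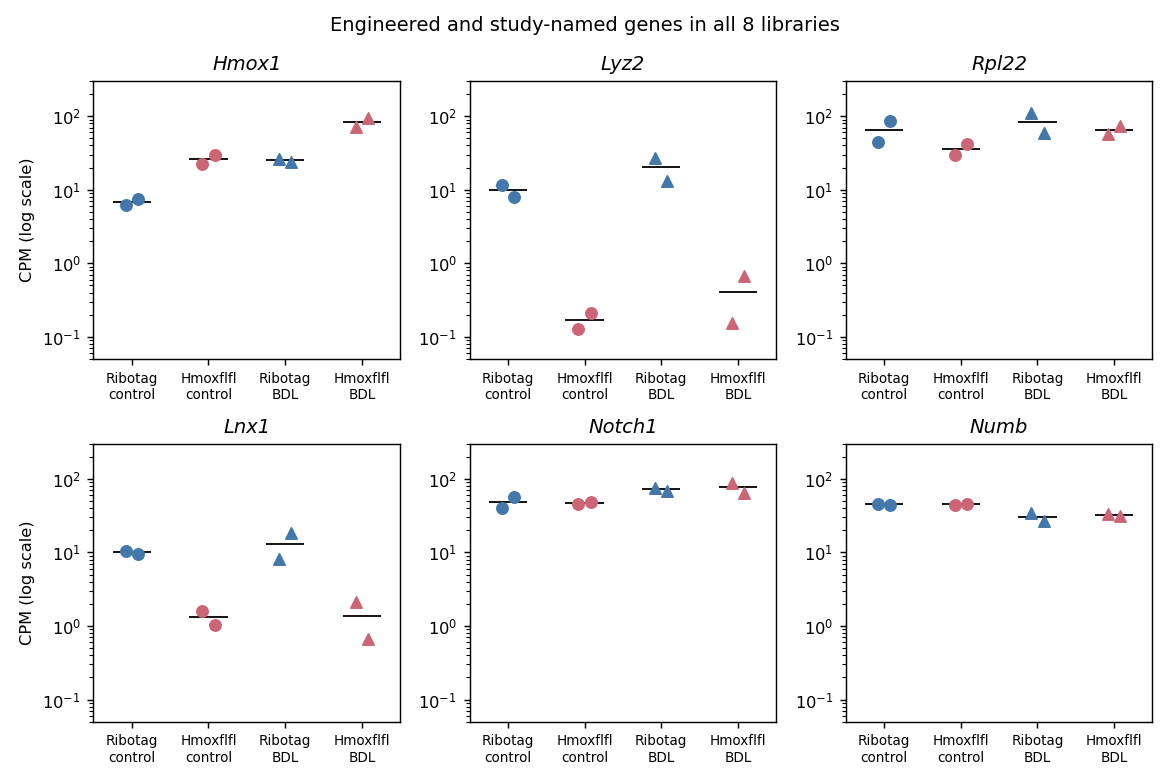
CPM (log scale) of Hmox1, Lyz2, Rpl22, Lnx1, Notch1 and Numb in all 8 libraries, with circles for control and triangles for BDL, blue for Ribotag and red for Hmoxflfl, and a bar at the mean of each group of 2. Hmox1 is higher and Lyz2 and Lnx1 are lower in both red groups than in the blue group of the same treatment, while Notch1 and Numb overlap or lie close.

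Hmox1 had called neighbours on both sides. Within 10 Mb of its start, 192 other genes were tested, of which 2 were called (1.04% against 0.191% of all genes) and 30 had an unadjusted p under 0.05 (15.6% against 6.84%), 12 higher and 18 lower. Cacna1a, a pore subunit of neuronal P/Q-type calcium channels, lies 9.25 Mb after it (84338631 to 84640251). It had 1.70 and 2.80 CPM in the Ribotag controls and 26.1 and 22.9 CPM in the Hmoxflfl controls. The log2 fold change was 3.44 ± 0.34 (edgeR, adjusted p = 0.00123), a 10.9-fold higher level. The call held in all 14 alternatives that tested the gene. Ints10, a subunit of the Integrator complex that processes small nuclear RNAs, lies 6.30 Mb before Hmox1 (68793929 to 68829410). Its level was 8.86 and 7.33 CPM against 22.7 and 21.99 CPM (1.46 ± 0.23, edgeR, adjusted p = 0.0286), and the call was lost without each of the 4 control libraries in turn (adjusted p up to 0.326).

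Further genes of that stretch differed, some lower and some higher, without passing the adjusted threshold, and are named after their values were seen. Hapln4, a hyaluronan-binding protein, had 7.13 and 3.76 CPM against 1.62 and 1.19 CPM (−1.97 ± 0.38, edgeR, adjusted p = 0.0831). Rfxank, a subunit of the factor that drives MHC class II genes, had 17.3 and 17.6 CPM against 7.99 and 6.65 CPM (−1.26 ± 0.25, edgeR, adjusted p = 0.0965). The phosphodiesterase gene Pde4c was higher, as were Cacna1a and Ints10, with 18.5 and 25.8 CPM against 55.4 and 52.7 CPM (1.29 ± 0.29, edgeR, adjusted p = 0.169). Zfp868, a zinc-finger gene, had 4.68 and 5.95 CPM against 13.4 and 13.4 CPM. With the 4 control libraries alone Rfxank, Pde4c and Zfp868 were called (edgeR, adjusted p = 0.0286, 0.0342 and 0.0363). Hapln4 was not called there (0.0673). Of the 30 neighbours with an unadjusted p under 0.05, 13 had one with the same sign after BDL as well, beside 132 of the 968 genes at that p over the genome. Around the other engineered loci no second gene was called. In the 10 Mb windows, 84 other genes were tested near Lyz2 and 128 near Rpl22, of which 13.1% and 10.9% had an unadjusted p under 0.05.

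**Figure D3:**
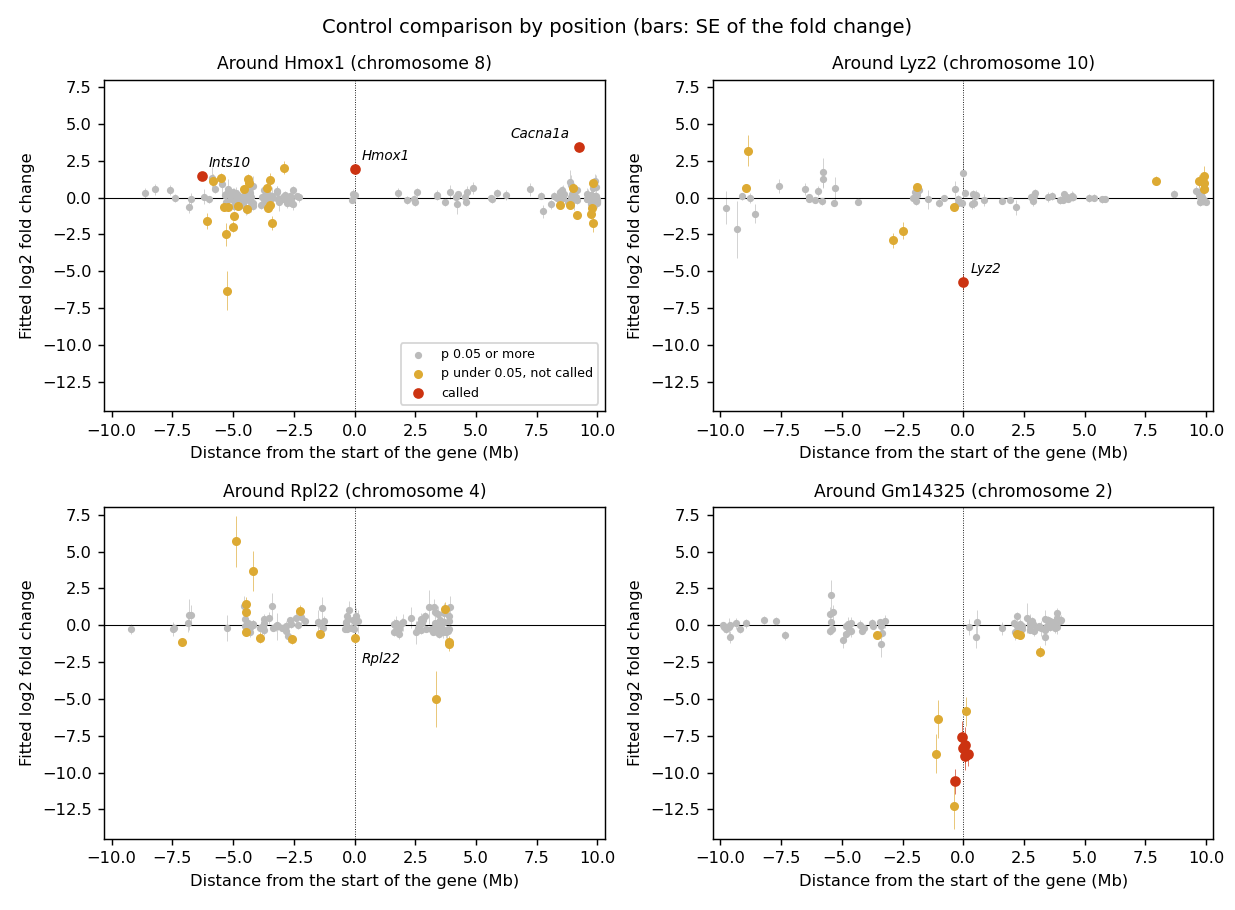
Fitted log2 fold change (y, with SE bars) of every tested gene against its distance in Mb (x) from the start of Hmox1, Lyz2, Rpl22 and Gm14325; grey points have p of 0.05 or more, yellow points a smaller p without a call, red points are called. The Hmox1 panel holds 2 red neighbours on opposite sides, the Lyz2 and Rpl22 panels none, and the Gm14325 panel a narrow group of points far below 0. The Gm14325 window was chosen after the calls were seen.

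Of the 27 calls, 6 lay in a block of zinc-finger genes at the far end of chromosome 2. Such KRAB zinc-finger genes form tandem families that bind DNA, many of them at transposable elements. Of 95 other tested genes within 10 Mb of Gm14325, 5 were called (5.26% against 0.191% of all genes). That window was centred on a called gene after the calls were seen, so its share is no test of clustering. All 6 called genes of the block were lower in the Hmoxflfl controls. The promoters of the 4 of them that have an entry in RefSeq (GRCm38.p6, the mm10 build) are shown because they share an unbroken run of 30 bases, printed in capitals. Each covers 250 bases before the gene's start and 50 after it, read 5′ to 3′ on the gene's strand. They lie at chr2:177497976-177498275 (plus strand), chr2:177840287-177840586 (minus), chr2:178023034-178023333 (plus) and chr2:177925601-177925900 (minus).
Gm14403: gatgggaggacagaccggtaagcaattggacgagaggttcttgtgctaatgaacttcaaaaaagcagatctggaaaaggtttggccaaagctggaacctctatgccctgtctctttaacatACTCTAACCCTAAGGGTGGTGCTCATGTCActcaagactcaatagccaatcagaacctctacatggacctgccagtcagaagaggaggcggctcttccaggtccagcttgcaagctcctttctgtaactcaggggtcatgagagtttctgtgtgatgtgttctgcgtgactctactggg
Gm14325: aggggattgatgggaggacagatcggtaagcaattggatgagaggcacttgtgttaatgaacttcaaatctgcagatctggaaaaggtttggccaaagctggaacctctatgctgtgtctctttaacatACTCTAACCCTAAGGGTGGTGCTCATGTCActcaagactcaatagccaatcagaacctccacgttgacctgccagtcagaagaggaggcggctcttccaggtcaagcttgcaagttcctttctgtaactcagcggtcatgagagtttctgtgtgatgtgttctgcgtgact
Zfp971: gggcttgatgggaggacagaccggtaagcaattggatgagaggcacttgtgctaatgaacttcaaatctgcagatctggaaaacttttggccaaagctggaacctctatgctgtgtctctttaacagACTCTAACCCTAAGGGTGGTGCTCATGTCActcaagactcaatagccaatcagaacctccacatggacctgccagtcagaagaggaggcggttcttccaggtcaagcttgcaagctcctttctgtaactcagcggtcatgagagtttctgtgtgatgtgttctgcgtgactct
Zfp972: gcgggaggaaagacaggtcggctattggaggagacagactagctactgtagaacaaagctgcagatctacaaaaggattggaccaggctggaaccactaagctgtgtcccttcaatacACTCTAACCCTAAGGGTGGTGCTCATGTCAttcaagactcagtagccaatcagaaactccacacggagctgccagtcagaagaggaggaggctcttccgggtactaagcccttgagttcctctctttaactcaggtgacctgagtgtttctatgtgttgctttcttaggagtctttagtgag
On either strand the run was found in 33 of 32851 promoters of that length (0.1%), which belong to 29 genes. Promoter identity was 95.4% between Gm14325 and Zfp971, 91.2% between Gm14403 and Zfp971 and 74.8% to 76.8% for pairs with Zfp972.

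In the Ribotag controls these genes were plainly expressed. Gm14403, a long non-coding RNA in the annotation (177498226 to 177512311), had 46.7 and 55.2 CPM there and 0 and 0.0423 CPM in the Hmoxflfl controls, which is 3202 counts against 2. The ratio of levels was 1797, with a 95% counting interval of 497 to 14842. Gm14325 (177828991 to 177840336) had 14.8 and 16.4 CPM against 0.0855 and 0.0212 CPM, a ratio of 366 with an interval of 125 to 1779. Zfp971 (178023284 to 178035859) had 19.97 and 19.4 CPM against 0 and 0.0635 CPM, a ratio of 463 (interval 158 to 2250). These intervals and the floors below cover counting error only.

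The 3 other called genes of the block were at 0 counts in both Hmoxflfl libraries. Against a floor of 3 counts over that group, Zfp972 (2.42 and 1.90 CPM in the Ribotag controls) was at least 50.9-fold lower, Gm14327 (1.26 and 1.32 CPM) at least 30.3-fold lower and Gm14322 (1.07 and 0.740 CPM) at least 21.3-fold lower. Adjusted p-values of the 6 genes ran from 0.00123 to 0.0391 (edgeR). The calls on Gm14325, Gm14403 and Zfp971 held without each control library, that on Zfp972 was lost without Hmoxflfl replicate 2 (adjusted p = 0.0532), and those on Gm14322 and Gm14327 were lost in every such fit (up to 0.216 and 0.232). Zfp970, named after its values were seen, was the most abundant of the block at 101 and 90.6 CPM against 0.0427 and 0 CPM, yet missed the threshold in the main fit (edgeR, adjusted p = 0.142). It was called in 6 of 16 alternatives. Likewise Gm14305, Gm14295 and Gm14326 were lower without a call in that fit. With the 4 control libraries alone Zfp970, Gm14305 and Gm14326 were called (edgeR, adjusted p = 4.04e-06, 0.00377 and 0.000169). Gm14295 was not called there (0.103). Several of these genes share much of their sequence: 83.7% of the 31-base words in the transcripts of Gm14325 recur in the transcripts of the 9 other genes of the block, 56.1% for Zfp971, 44.6% for Gm14403, 27.3% for Zfp970 and 2.9% for Zfp972. The split of reads among the genes with high shares is therefore uncertain.

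A pair of RNase P-like RNA genes on separate chromosomes had the same pattern. RNase P RNA is the catalytic core of the enzyme that trims the 5′ end of transfer RNA precursors, and Rprl2 and Rprl3 are copies of it in the mouse genome. Their annotated sequences (GENCODE vM21, mm10) are shown because they are 92.1% identical, with the last 56 bases, in capitals, the same in both. Rprl2 lies at chr3:22251374-22251663 on the plus strand and Rprl3 at chr8:3803069-3803358 on the minus strand.
Rprl2: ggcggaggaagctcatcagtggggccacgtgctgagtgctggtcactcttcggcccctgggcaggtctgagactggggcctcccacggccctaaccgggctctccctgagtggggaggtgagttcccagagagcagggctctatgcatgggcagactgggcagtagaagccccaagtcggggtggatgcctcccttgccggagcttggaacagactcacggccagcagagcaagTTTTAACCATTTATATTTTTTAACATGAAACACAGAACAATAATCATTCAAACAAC
Rprl3: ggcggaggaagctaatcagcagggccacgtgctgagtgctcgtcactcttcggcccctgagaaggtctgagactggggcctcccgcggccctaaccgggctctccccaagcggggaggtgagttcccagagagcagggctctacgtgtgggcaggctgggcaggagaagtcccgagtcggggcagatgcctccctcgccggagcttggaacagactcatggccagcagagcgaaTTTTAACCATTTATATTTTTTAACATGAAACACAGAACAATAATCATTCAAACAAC
Rprl3 had 11.8 and 11.2 CPM (722 counts over both libraries) in the Ribotag controls and 0 counts in both Hmoxflfl controls, at least 270-fold lower (edgeR, adjusted p = 0.00384). That call was lost without the BDL library of fewest counts (adjusted p = 0.0941). Rprl2 had 1.10 and 1.09 CPM against 0 counts in both, at least 25.8-fold lower (edgeR, adjusted p = 0.0147), a call lost without each control library in turn (adjusted p up to 0.151). Rpph1, the parent RNase P RNA with 75.5% and 75.8% identity to the pair, had 2526 and 2128 CPM against 2005 and 1815 CPM and was not called (edgeR, adjusted p = 0.94). Reads from near-identical copies may have been split between these genes by the counting.

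Hamp and Marco were called higher. Hamp encodes hepcidin, the hepatocyte hormone that closes the iron exporter ferroportin. Its promoter from RefSeq (GRCm38.p6, chr7:30943980-30944279, minus strand) is shown with GGCGCC, the core of a bone morphogenetic protein response element, and TTCTTGGAA, a STAT3 element, in capitals.
Hamp: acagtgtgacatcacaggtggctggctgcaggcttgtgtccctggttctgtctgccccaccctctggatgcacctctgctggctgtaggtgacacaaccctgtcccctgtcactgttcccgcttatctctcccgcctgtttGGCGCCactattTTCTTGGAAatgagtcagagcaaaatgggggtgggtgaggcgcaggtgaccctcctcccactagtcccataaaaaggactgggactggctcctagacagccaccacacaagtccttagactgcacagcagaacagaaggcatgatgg
The words start 109 and 97 bases before the gene's start. On either strand GGCGCC occurs in 3898 of 32851 promoters of the same length (11.866%) and TTCTTGGAA in 137 (0.417%); a match is a description of the letters only. Hamp had 21.6 and 23.1 CPM in the Ribotag controls and 122 and 85.1 CPM in the Hmoxflfl controls, with no overlap. It was 4.63-fold higher (log2 2.21 ± 0.28, edgeR, adjusted p = 0.00434). The call was lost without Ribotag replicate 1 (adjusted p = 0.141), Ribotag replicate 2 (0.0639) or Hmoxflfl replicate 1 (0.0520), and over 16 alternatives the adjusted p ran from 2.66e-11 to 0.819 with a positive fold change in each.

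Marco, a scavenger receptor of Kupffer cells that binds bacteria and particles, had 8.32 and 7.88 CPM against 35.0 and 28.5 CPM. It rose by 1.97 ± 0.31 on the log2 scale (chromosome 1, 120474538 to 120505024; edgeR, adjusted p = 0.0286). The rise was 1.788 to 2.105 without single control libraries, and the call was lost without each of the 4. It was also lost under total-count scaling (edgeR, adjusted p = 0.819), with the filter at 5 CPM (0.0511) and with the Rn45s term (0.414). On the FPKM it was lost as well (limma, adjusted p = 0.435 and 0.489), so the call held in 7 of 16 alternatives. Of 28 Kupffer cell genes, Marco was the 1 called, 22 had positive fold changes and the median was 0.27. The median was 0.18 without Ribotag replicate 2, 0.07 without Hmoxflfl replicate 2 and −0.26 under total-count scaling. The summed share of that list, 0.151% and 0.135% against 0.135% and 0.154%, overlapped between the groups, and Clec4f had 91.6 and 69.5 CPM against 81.4 and 97.3 CPM.

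Among 31 genes of heme breakdown and iron handling, Hmox1 and Hamp were called and the median was 0.03. Spic, the factor that specifies iron-recycling macrophages, had 1.13 and 0.900 CPM against 2.48 and 1.88 CPM (1.09 ± 0.41, edgeR, adjusted p = 0.611). Tfrc, the transferrin receptor, had 38.4 and 24.7 CPM against 19.4 and 19.5 CPM (−0.70 ± 0.24, edgeR, adjusted p = 0.550). The list of 29 NRF2 targets, the oxidative stress genes to which Hmox1 is usually assigned, had 0 calls and a median of 0.07, with 3 genes higher and 1 lower at an unadjusted p under 0.05. In that list Osgin1 had 60.4 and 28.5 CPM against 98.1 and 94.98 CPM.

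Meg3 and Rian, long non-coding RNAs expressed from the maternal allele of the imprinted Dlk1-Dio3 region, were both higher. Meg3 (chromosome 12, 109540996 to 109571729) had 13.3 and 14.4 CPM in the Ribotag controls and 105 and 91.3 CPM in the Hmoxflfl controls, 7.10-fold more (2.83 ± 0.27, edgeR, adjusted p = 0.00123). Rian (109603945 to 109661716) had 5.97 and 3.67 CPM against 36.7 and 27.6 CPM, 6.65-fold more (2.73 ± 0.33, edgeR, adjusted p = 0.00384). For each, the lower Hmoxflfl library was above 4 times the higher Ribotag library. Both calls held without each control library. Total-count scaling ended both (adjusted p = 0.133 for Meg3 and 0.203 for Rian), as did limma on log2(FPKM + 0.1) for Meg3 (0.151) and the Rn45s term for Rian (0.0532).

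Chromosome 14 held 4 calls among 462 tested genes (0.866%, beside 0.191% of all genes, and 0.621% on chromosome 12, 0.563% on chromosome 2 and 0.536% on chromosome 8). These chromosomes are named because their shares of calls were the highest. At an unadjusted p under 0.05 (edgeR) the share on chromosome 14 was 7.79%, beside 6.84% of all genes. Sall2, a zinc-finger transcription factor, had 1.35 and 1.03 CPM against 5.21 and 5.63 CPM (2.18 ± 0.34, edgeR, adjusted p = 0.0267). Lrtm1, a leucine-rich repeat membrane protein, had 0.659 and 0.643 CPM against 3.85 and 3.01 CPM (2.38 ± 0.38, edgeR, adjusted p = 0.0292). AY358078 had 1 count over both Ribotag controls and 122 over both Hmoxflfl controls, a ratio of 109 with a 95% counting interval of 19.1 to 4329. Klhl33, a Kelch-family gene, went the other way with 2.51 and 2.19 CPM against 0.171 and 0.0635 CPM, a ratio of 23.7 (interval 11.2 to 60.0). Sall2 and Lrtm1 lost their calls without each control library (adjusted p up to 0.293 and 0.322), AY358078 without 3 of them (up to 0.199) and Klhl33 without 2 (up to 0.149). Cyb561 on chromosome 11, an ascorbate-dependent electron carrier, had 0.691 and 0.772 CPM against 4.27 and 3.96 CPM (edgeR, adjusted p = 0.00380). Its call was lost without Ribotag replicate 1, where the log2 fold change was 2.39. It was also lost under total-count scaling (edgeR, adjusted p = 0.589), with the Rn45s term (0.0874) and on the FPKM (limma, adjusted p = 0.435 and 0.489).

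The remaining calls were lower. Serpina3c, a serine protease inhibitor of the liver, had 74.1 and 28.8 CPM against 0.385 and 0.508 CPM. It fell by 6.79 ± 0.60 on the log2 scale (chromosome 12, 104146907 to 104153929; edgeR, adjusted p = 0.00123), a fitted 111-fold lower level. Serpina3c kept its call without each control library but not with the Rn45s term (edgeR, adjusted p = 0.0532). Serpina3m in the same inhibitor family had 856 and 455 CPM against 136 and 179 CPM and missed the threshold (−2.06 ± 0.37, edgeR, adjusted p = 0.0661). The Serpina3 genes are close paralogs, so reads may be shared among them. Dab1, an adaptor of reelin signalling (chromosome 4, 103619500 to 104744844), had 7.63 and 3.89 CPM against 0.342 and 0.402 CPM (−3.91 ± 0.38, edgeR, adjusted p = 0.00123), and was called under all 16 alternatives.

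Ddit4, an inhibitor of mTORC1 that glucocorticoids, fasting and stress induce, had 23.7 and 44.7 CPM against 4.15 and 6.22 CPM (−2.71 ± 0.34, edgeR, adjusted p = 0.00434). Without Hmoxflfl replicate 1 its adjusted p was 0.0862, and with the Rn45s term 0.0532. Cyp2b10, a cytochrome P450 that the nuclear receptor CAR induces, had 10.4 and 12.3 CPM against 1.15 and 1.55 CPM, 8.24-fold lower (edgeR, adjusted p = 0.0392). Armcx4, an armadillo-repeat gene on the X chromosome, had 27.2 and 30.97 CPM against 4.36 and 10.2 CPM (−1.98 ± 0.33, edgeR, adjusted p = 0.0428). Cyp2b10 lost its call without each control library (adjusted p up to 0.345), and Armcx4 without 3 of them (up to 0.203) and in the fit of the 4 control libraries alone (0.132). Of 35 tested xenobiotic P450 genes, Cyp2b10 was the 1 called and the median was 0.04. Cyp2a5 had 119 and 165 CPM against 443 and 251.1 CPM, and Cyp1a1 0.973 and 1.16 CPM against 0.256 and 0.212 CPM, both without a call.

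Beyond single calls, 38 gene lists were described by their medians and by how many members had an unadjusted p under 0.05, a share that was 3.89% higher and 2.95% lower over all genes. The list of 28 glucocorticoid and fasting genes had a median of −0.63. In it 11 genes (39.3%) were lower at that p and 1 was called, Ddit4. Sgk1, a kinase that glucocorticoids induce, had 30.0 and 52.0 CPM against 13.4 and 18.8 CPM. Irs2, an insulin receptor substrate raised in fasting, had 55.7 and 104 CPM against 26.0 and 49.8 CPM. G6pc, the last enzyme of glucose release, had 959 and 871 CPM against 295 and 478 CPM (−1.24 ± 0.40, edgeR, adjusted p = 0.483). None of these 3 was called. Their libraries did not overlap, which was also so for 44.8% of all genes.

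Several other lists had negative medians as well. Some lists of hepatocyte genes did not, with medians of 0.20 for pericentral genes, 0.19 for cholesterol synthesis and 0.04 for xenobiotic P450 genes. Of all 14147 genes tested, 7474 had positive and 6667 negative fold changes. Of 34 nuclear-encoded oxidative phosphorylation genes, 33 were negative, 10 (29.4%) were lower at an unadjusted p under 0.05, 0 were called and the median was −0.43. For the complex III core protein Uqcrc1 the levels were 113 and 87.5 CPM against 45.3 and 63.0 CPM. Of 42 cytosolic ribosomal protein genes, 39 were negative, with 0 calls and a median of −0.35, and Rpl4 had 399 and 594 CPM against 218 and 256 CPM. Among 19 periportal hepatocyte genes, 6 (31.6%) were lower at that p with 0 calls and a median of −0.36. Agxt, an enzyme of glyoxylate removal, had 64.6 and 91.3 CPM against 38.1 and 37.6 CPM. In the list of 30 unfolded protein and heat shock genes, 9 (30%) were lower and 2 (6.67%) higher at that p, with 0 calls and a median of −0.28, which was 0.02 without Ribotag replicate 1. Its chaperone gene Hsp90aa1 had 262 and 271 CPM against 111 and 109 CPM and missed the adjusted threshold (−1.27 ± 0.23, edgeR, adjusted p = 0.0668).

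The 34 interferon response genes had a median of −0.44, with 31 negative, 6 (17.6%) lower at an unadjusted p under 0.05 and 0 called. Without Ribotag replicate 1 that median was −0.13. Usp18, which dampens interferon receptor signalling, had 31.5 and 20.0 CPM against 7.78 and 14.0 CPM. Isg15, a ubiquitin-like protein that interferon induces, had 14.7 and 4.98 CPM against 3.42 and 4.51 CPM, so that 1 library of the Ribotag group stood well above the 3 others. In the opposite direction, 23 inflammatory mediators had a median of 0.58, with 20 positive, 5 (21.7%) higher at that p and 0 called. Cxcl1, a neutrophil chemokine, had 0.785 and 1.54 CPM against 3.63 and 13.3 CPM (2.88 ± 0.58, edgeR, adjusted p = 0.143). Icam1, an adhesion molecule, had 6.53 and 4.66 CPM against 9.70 and 12.6 CPM. Of 31 acute phase genes, 7 (22.6%) were higher and 2 (6.45%) lower at that p, Hamp was called and the median was 0.27. That median was 0.48 without Hmoxflfl replicate 1, 0.11 without replicate 2 and −0.19 under total-count scaling. Among them Saa2 had 44.5 and 30.0 CPM against 141 and 74.0 CPM, and Lcn2 had 5.06 and 5.14 CPM against 28.9 and 9.86 CPM. Under total-count scaling the medians of the fasting, oxidative phosphorylation, ribosomal protein, interferon and inflammatory lists were −1.16, −0.94, −0.86, −0.96 and 0.08, beside −0.51 for all genes, so the inflammatory list stayed above and the other 4 below the rest. After BDL the medians of these 5 lists were 0.23, 0.10, 0.49, −0.11 and −0.04, and that of the periportal list was 0.16. The difference between treatments was not tested for lists. The Rn45s share, highest of the controls in Hmoxflfl replicate 1, differed between the groups together with these lists, and its part in them was not tested.

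**Figure D4:**
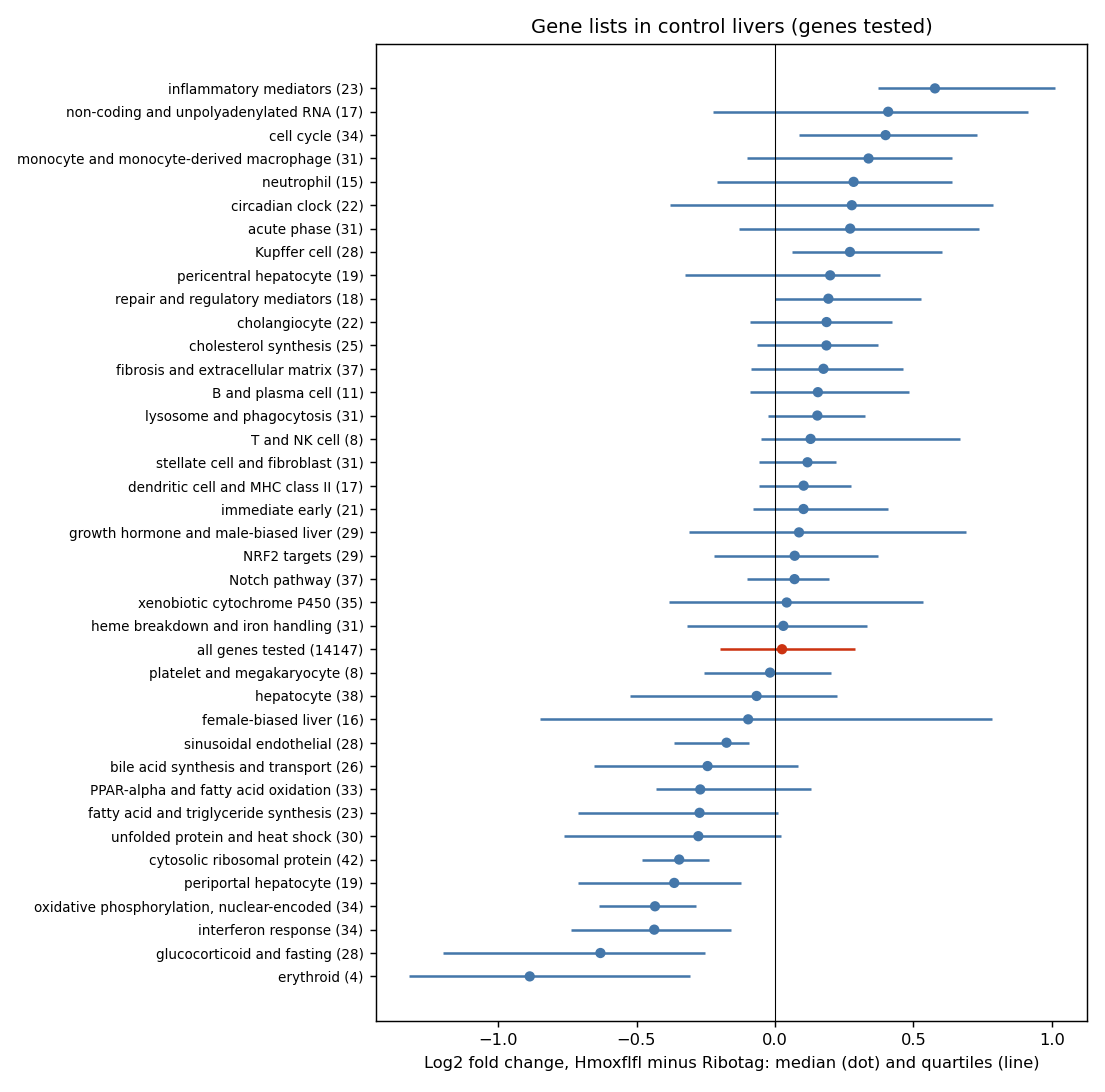
Median (dot) and quartiles (line) of the log2 fold change, Hmoxflfl minus Ribotag, for the tested genes of each of 38 lists, with their number in brackets, and for all genes tested in red. Inflammatory mediators are at the top (median 0.58); the erythroid list, with 4 tested genes, and the glucocorticoid and fasting list (−0.63) are at the bottom.

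After BDL the same genotype comparison, in 4 other libraries, showed most of the 27 differences again. Those 4 libraries also entered the fit behind the 27 calls, so the control and BDL comparisons are not fully separate. The fold changes of 25 of the 27 genes had the same sign there, with no overlap between groups in any of the 25, which was so for 38.3% of all genes after BDL. Of the 27, 24 also had an unadjusted p under 0.05 with that sign (11.8% of all genes had such a p after BDL in either direction). In the BDL comparison 9 genes were called (0.0636% of 14147), and 8 of them are among the 27: Hmox1, Cacna1a, Lyz2, Dab1, Gm14325, Gm14403, Zfp971 and Rprl3. Hmox1 had 26.0 and 23.97 CPM in Ribotag BDL and 72.3 and 95.5 CPM in Hmoxflfl BDL (1.74 ± 0.24, edgeR, adjusted p = 0.0191). Cacna1a had 2.40 and 2.57 CPM against 62.3 and 33.2 CPM, and Dab1 31.4 and 35.2 CPM against 1.24 and 1.33 CPM. Lnx1 had 8.13 and 18.2 CPM against 2.09 and 0.665 CPM, a log2 difference of −2.96 ± 0.49 that did not pass after BDL (edgeR, adjusted p = 0.0832). Marco had 35.7 and 51.5 CPM against 102 and 189 CPM (1.73 ± 0.30, edgeR, adjusted p = 0.102). In this second comparison 1 Ribotag BDL library came from a female and 1 Hmoxflfl BDL library had only 9.81 M counts. Rn45s took 66.8% of that Hmoxflfl BDL library, which left 3.25 M other counts. Without the female library 26 of the 27 had the same sign and 14 were called after BDL, and without the low-count library 26 had the same sign and 3 were called.

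Some differences of the control livers were smaller or absent after BDL. Meg3 had 3.62 and 6.55 CPM in Ribotag BDL and 9.36 and 8.64 CPM in Hmoxflfl BDL, a difference of 0.85 ± 0.28. For Hamp the levels were 116 and 76.9 CPM against 155 and 157 CPM (0.69 ± 0.27). Ddit4 and Cyp2b10 had the opposite sign after BDL: Ddit4 had 7.83 and 8.03 CPM against 10.1 and 14.8 CPM, and Cyp2b10 0.585 and 1.91 CPM against 1.12 and 2.88 CPM. The tests of the difference between treatments did not pass for these 4 (edgeR, interaction adjusted p = 0.342 for Meg3, 0.350 for Hamp, 0.120 for Ddit4 and 0.342 for Cyp2b10). Over all genes 1 passed that test (0.00707%), Tmc5, a transmembrane channel-like gene that was not called in the control livers.

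**Figure D5:**
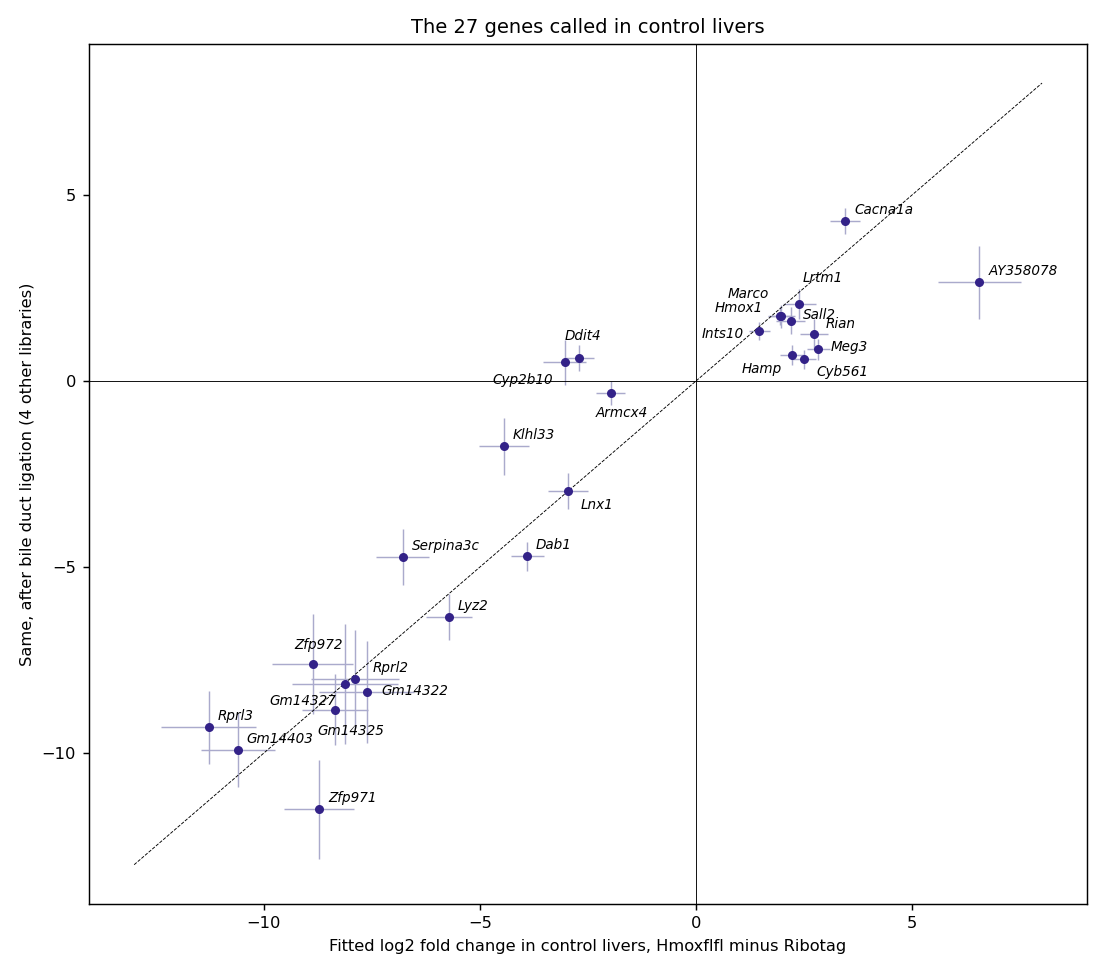
Fitted log2 fold change, Hmoxflfl minus Ribotag, of the 27 called genes in control livers (x) and after BDL (y), with SE bars and a dashed line of equality. All but 2 points, Ddit4 and Cyp2b10, have the same sign on both axes; Meg3, Hamp and Cyb561 lie well below the line.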

How the data were processed

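Ribosome-associated RNA from mouse liver was sequenced after ribosomal RNA depletion and stranded library preparation, per the labels' protocols. STAR 2.7.3a, Cufflinks and mm10 are named, with no roles, in the submitters' processing notes; annotation release and counting strand are not given in the sources used here, so reads of antisense or overlapping genes may be mixed. The authors deposited raw counts per gene for 24982 symbols, and a second table that the values and tool names mark as FPKM, used only as an alternative.

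Genes were kept by filterByExpr (14147), scaled by TMM and fitted with edgeR 4.0.16 (R 4.3.3; robust quasi-likelihood) to 4 group means of all 8 libraries, which left 4 residual degrees of freedom. The tests are two-sided F tests with Benjamini-Hochberg adjustment over all 14147 genes, and genes with an adjusted p under 0.05 are termed called. The SE is the absolute log2 fold change divided by the square root of F. Counting intervals are 95% exact binomial intervals, and a group at 0 counts gets a floor of 3 counts over the group. Libraries of a group correlated at r = 0.989 and 0.984 over genes (log2 CPM) and differed by more than counting error. On simulated data the control comparison, run on 14147 genes, recovered 6 of 50 genes changed 2-fold and 47 of 50 changed 4-fold. The changed genes excluded those of low mean CPM, and the simulated counts followed the fitted model of spread. Recovery at low levels, or where real counts depart from that model, was not tested. Gene positions are RefSeq's (GRCm38.p6), and 24913 symbols (99.72%) matched reference names.

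The text names the 6 genes Lyz2, Hmox1, Rpl22, Lnx1, Numb and Notch1 always, the 15 largest calls in each direction with a mean log2 CPM of at least 1 (predicted genes left out; 13 passed), the called genes within 10 Mb of an engineered locus, and per list members drawn from its 6 smallest p-values. The 14 calls that missed the level part of the rule, the neighbours of Hmox1 and Gm14325 without a call, Rpph1 and Tmc5 were chosen after their values were seen. So were the window around Gm14325 and the chromosomes compared by their calls. Members and lists were chosen with earlier results of these data known. Alternatives were DESeq2 1.42.0, the 4 control libraries alone, other scalings and filters, Rn45s left out or as a covariate, limma 3.58.1 on log2(FPKM + 1) and log2(FPKM + 0.1), and fits without single libraries.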

Additional observations from a re-analysis of the deposited data

Results flagged for a closer look

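The genotype effect on Tmc5 differed between control livers and livers after BDL by the interaction test (edgeR's quasi-likelihood test, adjusted p = 0.0387), with a difference of 5.90 ± 0.70 on the log2 scale. Tmc5 had 0.0628 and 0.0965 CPM in the Ribotag controls against 0.385 and 0.402 CPM in the Hmoxflfl controls, and 13.4 and 17.6 CPM in Ribotag BDL against 0.928 and 1.99 CPM in Hmoxflfl BDL. The control levels are near the limit of detection. The call on Tmc5 was lost without each of the 4 control libraries in turn, with the filter at 5 CPM and with a term for the Rn45s share.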

How the results depend on the processing

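No paired analysis was run, as the labels link no Ribotag library to an Hmoxflfl library. They carry no replicate numbers either, so those used here follow the order of the samples in the series. The 27 calls in control livers became 100 with DESeq2, 65 with the 4 control libraries alone, 44 with total-count scaling, 126 with no filter on low counts, 15 with a filter at 5 CPM, 52 without the female BDL library and 10 with a term for the Rn45s share, and 12 to 21 without single control libraries. The other settings gave 27 to 30, but on the FPKM 3 higher and 26 lower, or 2 and 28. Of the 27 calls, 17 were kept under total-count scaling and 8 with the Rn45s term. Each fit on the FPKM kept 11 of the 17 it tested. The 9 calls after BDL became 171 with DESeq2, 95 with total-count scaling, 206 with no filter, 18 and 37 on the FPKM, 4 without the low-count library and 306 without the female library. The 1 interaction call became 84 with DESeq2, 7 with total-count scaling, 138 with no filter, 0 with the 5 CPM filter or the Rn45s term, 5 and 6 on the FPKM, 195 without the female library, and 0 to 1 without single control libraries, where the 1 was not Tmc5. At an unadjusted p under 0.05 the counts of 0 had 953 genes with the filter and 1193 with that term. The cause of these shifts was not tested. Of the 80 genes checked, 2 changed sign in some setting. Notch1 ran from −0.30 to 0.23 without single control libraries, the latter without Ribotag replicate 2. Numb was −0.00756 with the 4 control libraries, −0.53 with total-count scaling, −0.00416 with no filter, −0.0101 without Rn45s, −0.0754 with the Rn45s term, −0.56 and −0.66 on the FPKM, −0.0300 to 0.00533 without single control libraries, −0.0129 without the low-count library and −0.00352 without the female one. Depth limits the genes at 0 to 3 counts to a bound or an interval.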

Other observations

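Cebpe, a transcription factor of granulocyte development, had 0.0314 and 0 CPM in the Ribotag controls and 12.1 and 7.62 CPM in the Hmoxflfl controls, yet was not called in the main fit (edgeR's quasi-likelihood test, adjusted p = 0.324). With the 4 control libraries alone Cebpe was called (edgeR, adjusted p = 0.000169). It was called in 4 of the 14 alternatives that tested it, and its fold change was positive in all 14. Elane and Mpo, granule genes of early granulocytes, were at or under 0.128 CPM in the same 4 libraries. Nfil3, a transcription factor linked to the circadian clock, had 29.3 and 54.8 CPM in the Ribotag controls against 12.7 and 17.3 CPM in the Hmoxflfl controls and was not called either (−1.48 ± 0.31, edgeR, adjusted p = 0.124).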
